A study of Mus musculus with 6 samples.

Results

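The proteasome genes of quiescent muscle stem cells (qMuSCs) were read in RNA-seq of WT and cD2KO mice. They were all protein-coding genes of the count table whose symbol begins with Psma, Psmb, Psmc, Psmd, Psme, Psmf or Psmg and a digit, without Psmb8 and Psmb9, which gave 48 of 31053 genes. The qMuSCs were sorted by FACS for GFP fluorescence from limb muscles of resting mice, which the methods of the study give as 3 to 4 months old. The 3 WT mice were Pax7nGFP/+;Pax7+/+;Dio2Fl/Fl and the 3 cD2KO mice Pax7nGFP/+;Pax7-CreERT2/+;Dio2Fl/Fl, and both groups had tamoxifen, so that not only Dio2, the gene of type 2 deiodinase, but also the Cre allele sets the groups apart. CreERT2 is driven by Pax7, the transcription factor that marks muscle stem cells, and acts after tamoxifen. RNA of each mouse was sequenced as a library of its own. Values are given in the order c124, c129 and c130 for WT and fl125, fl126 and fl128 for cD2KO. The question was whether the core, the cap and the activators of the proteasome differ in RNA between the groups.

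The proteasome is the barrel-shaped protease that degrades proteins tagged with ubiquitin. Its 20S core is a stack of rings, with alpha subunits (Psma genes) on the outside and beta subunits (Psmb genes), some of which carry the proteolytic sites, inside. The 19S cap sits on the ends of the barrel. Its ring of ATPases (Psmc genes) unfolds substrates, and its Psmd subunits bind ubiquitin, remove it or form the lid. Psme genes encode activators that open the core in place of the cap. Psmf1 encodes an inhibitor, and Psmg genes and a few Psmd genes encode chaperones that assemble the particle. Proteasome activity is known to be needed for the survival of satellite cells, the stem cells of adult muscle.

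Total counts were 2184073 to 3897787 per library, at which 3 counts stand for 0.768 to 1.36 CPM (the usual counts relative to library size, with edgeR's TMM scaling). Dio2 had counts of 21, 5 and 10 in WT and 15, 5 and 1 in cD2KO, below the expression minimum. The counts cover the whole gene and not only its floxed part, so they do not check the labels. The library labelled fl125 stood apart. Its 22 immune markers summed to 253 CPM, against 3080.1 and 3635 CPM in the other cD2KO libraries and 5291 to 9915 CPM in WT. Calls were made by edgeR's quasi-likelihood test where the unadjusted p was below 0.05. Of all genes tested 5.34% were called higher in cD2KO and 6.62% lower. Of the 20 immune markers tested 4 were called lower and 0 higher. All 20 had log2 fold changes below 0, with a median of -1.85. In 16 of them every cD2KO library lay below every WT library, which held for 10% of all genes tested. Cd3e and Cd79a, which mark lymphocytes, were at or near 0 in all libraries. The 11 markers of muscle stem cells (4 higher, 0 lower) summed to 1724 to 2336 CPM in WT and 2537 to 3407 CPM in cD2KO. Their log2 fold changes ran from -0.46 (Sdc4) to 0.95 (Des), with 8 above 0 and 3 below, and Pax7 was not called. Only 3 of them (Itga7, Cdh15 and Des) had every cD2KO library above every WT library. In fl128 Pax7 lay inside the WT range and Chodl below it, while Des was the highest of all libraries. The sums were not taken without Des, so they do not show more stem cell RNA in every cD2KO library. The 8 mural markers (4 higher, 0 lower) summed to 5326 to 9161 CPM in WT and 10964 to 16141 CPM in cD2KO. The mural markers called were Acta2, Myh11, Tagln and Cnn1. Rgs5, Pdgfrb, Kcnj8 and Abcc9 had log2 fold changes of 0.00, -0.06, -0.36 and -0.23. The 12 endothelial markers (0 higher and 6 lower of 11 tested) summed to 271 to 381 CPM in WT and 212 to 271 CPM in cD2KO, the 6 fibroadipogenic markers (0 higher, 2 lower) to 2929 to 4499.7 and 1703 to 3746 CPM and the 6 myofiber markers (0 higher, 0 lower) to 1353 to 3139 and 2406 to 4742 CPM. The part of these markers in the values below was not tested, and in bulk RNA fewer cells of a type cannot be told apart from less RNA per cell.

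Of the 48 genes, 45 passed the expression minimum, a mean of DESeq2-normalized counts above 10, and were tested. Psma8, the alpha subunit known from testis, and Psmb11, the beta subunit of the thymus, had at most 4 and 2 counts in a library. Psme2b, a copy related to Psme2 that lies in an exon of 9930111J21Rik1, had counts of 8, 18 and 2 in WT and 11, 2 and 6 in cD2KO. All 31 genes of core and cap were tested. The mean count over the 6 mice of a tested gene was between 13.2 (Psmc3ip, which is no subunit) and 1112 (Psmc3). The 48 genes together took 0.441%, 0.409% and 0.442% of the scaled counts in WT and 0.453%, 0.478% and 0.495% in cD2KO. Every cD2KO library lay above every WT library, and the same order held when counts were scaled to the library total, where the sum was at most 4527 CPM in WT and at least 4577 CPM in cD2KO. The summed level was 4306 ± 189 against 4751 ± 209 CPM (SD, n = 3 mice each), which is 1.10 times WT. The highest value of a gene was in fl128 for 14 of the 45 genes and in c129 for 3, and the lowest was in c129 for 15 and in fl126 for 3.

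Gene by gene the differences were small. With the same rule for calls, 3 of the 45 genes were higher in cD2KO, or 6.67%, against 5.34% of the 11633 genes tested, and 0 were lower, against 6.62%. In either direction that is 6.67% of the proteasome genes and 12% of all genes. The share of higher genes is close to the background. With counts scaled to the library total, 0 of the 45 genes were called in either direction, and of all called genes 31.5% were higher, beside 44.6% with TMM. DESeq2 and limma voom also gave 0 lower proteasome genes at this threshold, with 2 and 3 higher. None of the 45 genes had an adjusted p in edgeR under 0.1 or 0.05, against 0.774% and 0.00860% of all genes, and the lowest adjusted p was 0.361. The median log2 fold change was 0.08, beside -0.02 over all genes tested, with 28 genes above 0 and 17 below. The median size of a log2 fold change, sign aside, was 0.19 for proteasome genes and 0.28 for all genes tested.

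In most genes the 95% interval bounded the difference at 2-fold, a limit far wider than the median size of 0.19 in log2 fold change. A gene without a call is thus not shown to be unchanged. In 37 of the 45 genes, or 82.2%, the 95% interval of the fold change from edgeR's fit lay within 2-fold in both directions, as it did in 49.2% of all genes tested. The interval reached below a 2-fold decrease in 3 genes (Psma5, Psme2 and Psmd5) and above a 2-fold increase in 5 (Psmf1, Psmd10, Psmg1, Psmg3 and Psmc3ip). The median coefficient of variation between mice of a group was 17.1% in WT and 16.2% in cD2KO for proteasome genes. Over all genes tested it was 22.1% and 24.7%. A minimum mean of 50 was passed by 39 of the 45 proteasome genes, against 7353 of the 11633 genes. The comparisons of intervals, fold change sizes and variation with all genes were not matched for expression level, whose part in them was not tested. The plot of fold changes by role shows these intervals.

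**Figure D1:**
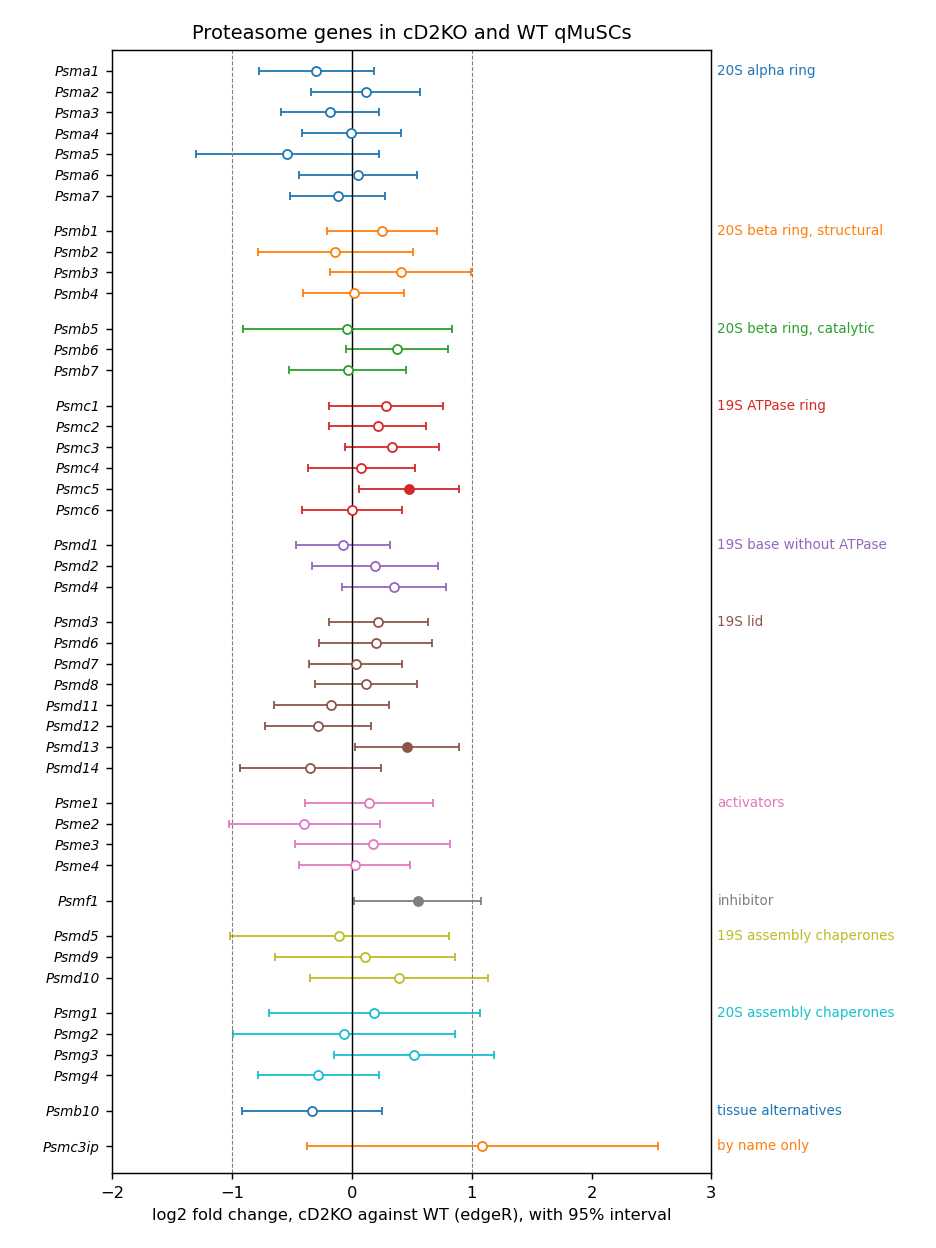
Log2 fold change of the 45 tested proteasome genes, cD2KO against WT (x axis, edgeR), with 95% intervals as bars and the genes (y axis) grouped by role. Filled points have an unadjusted p under 0.05 (Psmc5, Psmd13 and Psmf1), dashed lines mark 2-fold changes, and all 6 genes of the ATPase ring lie at or above 0, Psmc6 at 0.00 (-0.064 with counts scaled to the library total).

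The 14 genes of the 20S core were not called in either direction (0 higher and 0 lower), with a median log2 fold change of -0.02. They summed to 1575, 1519.7 and 1639 CPM in WT and 1462, 1756 and 1845 CPM in cD2KO. The groups overlapped, and the lowest value was that of the library labelled fl125. Without that library the median of the core was 0.10.

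Within the core, the alpha ring, which gates the entry of substrates, had its median log2 fold change at -0.12. Of its 7 genes 5 were below 0 and 0 were called by edgeR, DESeq2 or limma voom. The structural beta genes had a median of 0.14 and the catalytic beta genes of -0.04. Psma5 had the lowest log2 fold change of the ring, -0.54 (unadjusted p = 0.151 in edgeR's test), with 15.4, 13.996 and 21.1 CPM in WT and 12.7, 13.01 and 9.12 CPM in cD2KO. Psma3 was at 82.7, 71.1 and 78.6 CPM in WT and 68.9, 67.8 and 68.5 CPM in cD2KO, a log2 fold change of -0.18 with an SE of 0.19 (edgeR, unadjusted p = 0.358, adjusted p = 0.771). In both genes every cD2KO library lay below every WT library, which held for 10% of all genes tested. The fold change interval of Psma3 was 0.662 to 1.17 and that of Psma5 0.405 to 1.17, and both include 1. Psma5 shares exon sequence with 1700010K24Rik on the other strand, and whether the counting used strand is not given in the sources used here. Psma2 had the highest log2 fold change of the ring, 0.12, and Psma4, at 109.7 ± 14.5 CPM (SD, n = 3) in the WT group and 109.5 ± 7.601 CPM (SD, n = 3) in the cD2KO group, had -0.01. Psma1, Psma6 and Psma7 had log2 fold changes of -0.30, 0.05 and -0.12, and their groups overlapped.

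Of the genes that encode the proteolytic beta subunits, Psmb6 (beta 1, with caspase-like activity) was at 256, 271 and 254 CPM in WT and 274, 341 and 399 CPM in cD2KO. Every cD2KO library lay above every WT library, which held for 8.10% of all genes tested, with 271 CPM in WT and 274 CPM in the library labelled fl125 as the nearest values. The gene did not pass the test, with a log2 fold change of 0.37 with an SE of 0.20 (edgeR, unadjusted p = 0.0814, adjusted p = 0.494). Without fl125 its log2 fold change was 0.54 and its unadjusted p in edgeR's test 0.0100 (adjusted p = 0.153). Psmb5 (beta 5, with chymotrypsin-like activity, the main site that proteasome inhibitor drugs block) was low in CPM. Per kb of exon it had 18.6 CPM as a mean over the 6 mice, beside 17.1 for Psmb7. Psmb5 was variable, at 21.8, 19.2 and 10.04 CPM in WT and 9.52, 15.1 and 24.8 CPM in cD2KO. The groups overlapped, with the lowest and the highest of the 6 libraries both in cD2KO, and the interval of its fold change was 0.531 to 1.79. Psmb7 (beta 2, with trypsin-like activity) was at 58.4, 65.2 and 54.4 CPM in WT and 44.4, 57.8 and 71.0 CPM in cD2KO, a log2 fold change of -0.04 with a fold change interval of 0.696 to 1.37. The groups overlapped here too. GENCODE M21 lists pseudogenes named for Psmb5, Psmb6 and Psmb7, which are not among the counted genes, and reads that fit such a copy as well make the counts of these genes uncertain.

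The structural beta genes Psmb1, Psmb2, Psmb3 and Psmb4 had log2 fold changes of 0.25, -0.14, 0.41 and 0.02. Psmb3 was at 69.4, 32.0 and 40.2 CPM in WT and 58.5, 68.8 and 61.6 CPM in cD2KO. The WT library c124 was higher than every cD2KO library and the other WT libraries lower, and without c124 its log2 fold change was 0.80 (unadjusted p = 0.0102 and adjusted p = 0.226 in edgeR's test). Psmb4 was at 204 ± 15.6 CPM (SD, n = 3) in the WT group and 207 ± 34.3 CPM (SD, n = 3) in the cD2KO group, with a fold change interval of 0.755 to 1.35.

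The 17 genes of the 19S cap had their median log2 fold change at 0.19, with 13 above 0 and 4 below. By edgeR 2 were called higher, Psmc5 and Psmd13, and 0 lower. The cap genes summed to 2321, 2078 and 2293 CPM in WT and 2595, 2487 and 2549 CPM in cD2KO, or 2230.4 ± 133 against 2544 ± 54.3 CPM (SD, n = 3 mice each). All cD2KO libraries lay above all WT libraries, and they did so with counts scaled to the library total, at no more than 2347 CPM in WT and no less than 2399 CPM in cD2KO. The abundant genes weigh most in this sum.

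The ATPase ring had the highest median of the rings and of base and lid. Its 6 genes, whose products pull substrates into the core, had their median log2 fold change at 0.25 and summed to 959, 850.4 and 932 CPM in WT and 1118, 1075 and 1144 CPM in cD2KO. Psmc5 (Rpt6; ENSMUSG00000020708, chromosome 11 from 106256154 to 106263120 on mm10) was at 133, 124.5 and 132 CPM in WT and 174, 153 and 216 CPM in cD2KO. All 3 cD2KO libraries were higher than all WT libraries, and the WT values were close together. Psmc5 was at 129.9 ± 4.66 CPM (SD, n = 3) in the WT group and 181 ± 31.7 CPM (SD, n = 3) in the cD2KO group, with a log2 fold change of 0.48 with an SE of 0.20 (edgeR, unadjusted p = 0.0286, adjusted p = 0.361). The call was lost with any of the 3 WT mice or with cD2KO fl128 left out, with a log2 fold change of 0.33 without fl128, the highest library. It was also lost, at an unadjusted p of 0.0506 in edgeR's test, when counts were scaled to the library total.

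Psmc3 (Rpt5), the most abundant ATPase gene per kb of exon, was at 323, 333 and 347 CPM in WT and 421, 448 and 397 CPM in cD2KO. Psmc2 (Rpt1) was at 77.6, 81.4 and 84.1 CPM in WT and 88.8, 91.4 and 102 CPM in cD2KO. Both were higher in every cD2KO library than in every WT library and neither passed the test, with log2 fold changes of 0.33 and 0.21 (unadjusted p = 0.0913 and 0.276 in edgeR's test). Psmc3 shares exon sequence with Slc39a13 on the other strand. Psmc6 (Rpt4) had the lowest log2 fold change of the ring, with 78.1, 73.7 and 66.5 CPM in WT and 77.9, 70.5 and 70.4 CPM in cD2KO. The groups overlapped, with a log2 fold change of 0.00 and a fold change interval of 0.747 to 1.34. Psmc1 and Psmc4 overlapped between the groups, with log2 fold changes of 0.28 and 0.08.

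In the base, Psmd4 (Rpn10), a receptor for ubiquitin chains, was at 223, 169.8 and 260.3 CPM in WT and 279, 276 and 280.1 CPM in cD2KO. The cD2KO values were almost equal and lay above a wide WT range, and the gene did not pass the test, with a log2 fold change of 0.35 with an SE of 0.20 (edgeR, unadjusted p = 0.104, adjusted p = 0.526). Psmd1 and Psmd2, the scaffold subunits of the base, had log2 fold changes of -0.07 and 0.19 and overlapped. In the lid, Psmd13 (Rpn9; ENSMUSG00000025487, chromosome 7 from 140881968 to 140898643) was at 116, 82.1 and 97.3 CPM in WT and 152, 134 and 122 CPM in cD2KO. The groups did not overlap, with c124 the highest WT and fl128 the lowest cD2KO library. The difference was a log2 fold change of 0.46 with an SE of 0.20 (edgeR, unadjusted p = 0.0379, adjusted p = 0.386), and the call was lost in 4 of the 6 fits that left out 1 mouse, those without c129, c130, fl125 or fl126. The call was also lost with a minimum mean of 50 and with counts scaled to the library total. Psmd13 shares exon sequence with Sirt3 on the other strand. Psmd14 (Rpn11), the deubiquitinase that removes ubiquitin chains during degradation, was at 30.7, 29.8 and 44.0 CPM in WT and 32.6, 26.0 and 23.9 CPM in cD2KO. Its log2 fold change was -0.35, the lowest of the lid, and its groups overlapped, with a fold change interval of 0.522 to 1.18. The other lid genes, Psmd3, Psmd6, Psmd7, Psmd8, Psmd11 and Psmd12, had log2 fold changes from -0.28 (Psmd12) to 0.22 (Psmd3). Psmd7, the most abundant lid gene per length, was at 281 ± 11.5 CPM (SD, n = 3) in the WT group and 288 ± 8.83 CPM (SD, n = 3) in the cD2KO group.

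The ratio of ATPase ring to alpha ring RNA within a library does not change with the scaling of libraries. It was chosen after the values of both rings were seen, and it is 1 of several ratios computed. The ratio of summed CPM was 1.30, 1.34 and 1.18 in WT and 1.67, 1.52 and 1.64 in cD2KO, or 1.27 ± 0.08 and 1.61 ± 0.08 (SD, n = 3 mice each). All cD2KO libraries were above all WT libraries, fl125 included. They stayed so with Psmc3 left out of the sum, at 0.74 to 0.86 in WT and 0.89 to 1.07 in cD2KO, and with Psmc5 left out, at 1.02 to 1.14 and 1.30 to 1.41. The ratio of the whole core to the whole cap overlapped, at 0.68, 0.73 and 0.71 in WT and 0.56, 0.71 and 0.72 in cD2KO. The lowest value of core to cap was that of fl125. The ratio of ATPase ring to lid also put all cD2KO libraries above all WT libraries, so the separation was not particular to the alpha ring. It was 1.101 ± 0.053 in WT and 1.264 ± 0.063 in cD2KO (SD, n = 3 mice each). The ratios of alpha to beta ring, of activators to core and of assembly chaperones to core overlapped. No p is given for these ratios, since the genes were grouped with results known.

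**Figure D2:**
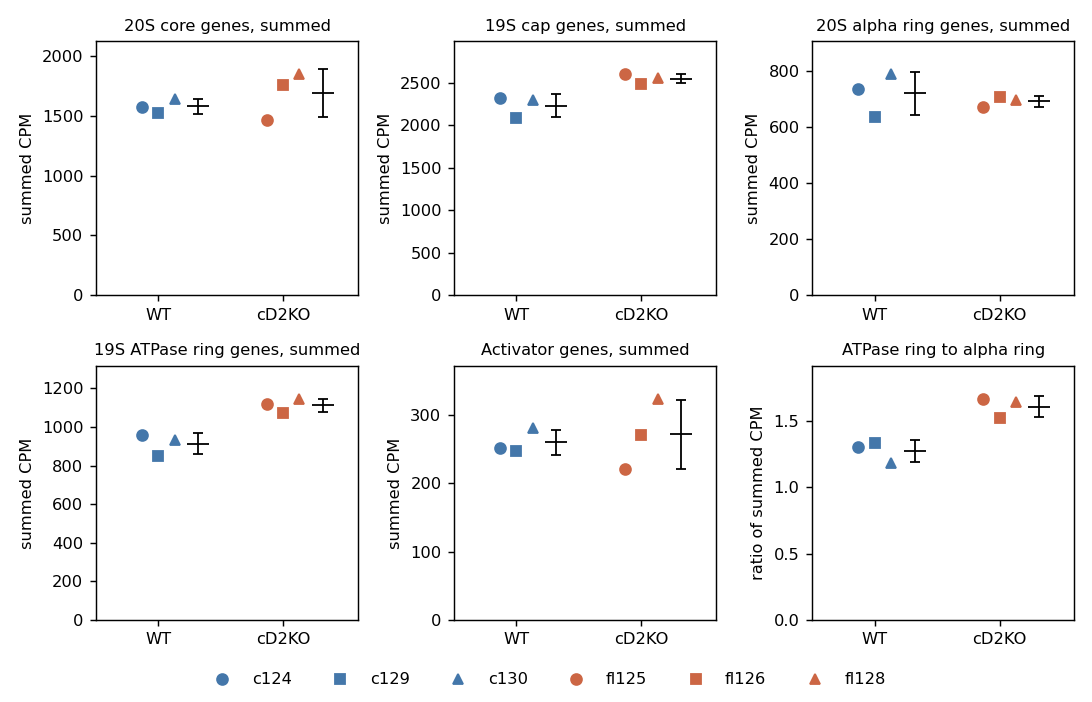
Summed CPM of the genes of the 20S core, 19S cap, alpha ring, ATPase ring and activators, and the ratio of ATPase to alpha ring sums (y axes), for each WT (blue) and cD2KO (orange) mouse; the black bar beside each group is mean ± SD of 3 mice. The cap and ATPase ring sums and the ratio separate the groups, the others overlap.

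Among the activators 0 of the 4 tested genes were called, and the median log2 fold change was 0.08. The 5 activator genes summed to 252, 248 and 281 CPM in WT and 221, 271 and 323 CPM in cD2KO, and the groups overlapped. Psme1 and Psme2 encode the subunits of PA28alpha-beta, an activator that interferon gamma induces. Psme1 was at 111, 117 and 143 CPM in WT and 84.7, 149.9 and 174 CPM in cD2KO. Psme2 was at 30.0, 24.3 and 34.6 CPM in WT and 28.1, 22.6 and 17.3 CPM in cD2KO. The groups overlapped in both genes. The log2 fold changes were 0.14 and -0.40, and neither gene passed the test (unadjusted p = 0.571 and 0.198 in edgeR's test). The library labelled fl125 had the lowest Psme1 value, and without it the log2 fold change was 0.43 (unadjusted p = 0.0447 and adjusted p = 0.305 in edgeR's test). Psme3, the nuclear activator PA28gamma, was at 48.4, 28.7 and 49.2 CPM in WT and 31.7, 44.1 and 66.3 CPM in cD2KO, with a log2 fold change of 0.17 and a fold change interval of 0.721 to 1.76. Psme4, which encodes PA200, was at 60.9, 70.7 and 53.7 CPM in WT and 71.6, 53.4 and 63.8 CPM in cD2KO, a log2 fold change of 0.02 with a fold change interval of 0.738 to 1.40. Both overlapped between the groups.

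Psmf1, which encodes the inhibitor PI31 (ENSMUSG00000032869, chromosome 2 from 151715812 to 151744186), was the third gene called. It was at 36.6, 34.3 and 24.9 CPM in WT and 42.1, 47.6 and 50.6 CPM in cD2KO, with all cD2KO libraries above all WT libraries. The level was 31.9 ± 6.18 CPM (SD, n = 3) in the WT group and 46.8 ± 4.29 CPM (SD, n = 3) in the cD2KO group. This is a log2 fold change of 0.55 with an SE of 0.25 (edgeR, unadjusted p = 0.0441, adjusted p = 0.400), or 1.46-fold with an interval of 1.01 to 2.11. The call was lost without c130, the lowest WT library, where the log2 fold change was 0.40, and without fl126 or fl128. It was also lost in the Wald test of DESeq2 (unadjusted p = 0.0552), with a minimum mean of 50 and with counts scaled to the library total.

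In all, 7 of the 45 genes were higher in every cD2KO library than in every WT library, against 8.10% of all genes tested, and 2 were lower in every one, against 10%. Together these are 20% of the tested proteasome genes, beside 18.1% of all genes. The 7 higher genes are 1 of the core (Psmb6), 5 of the cap (Psmc2, Psmc3, Psmc5, Psmd4 and Psmd13) and Psmf1, and the 2 lower genes are of the alpha ring (Psma3 and Psma5). No other alpha ring gene separated the groups.

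**Figure D3:**
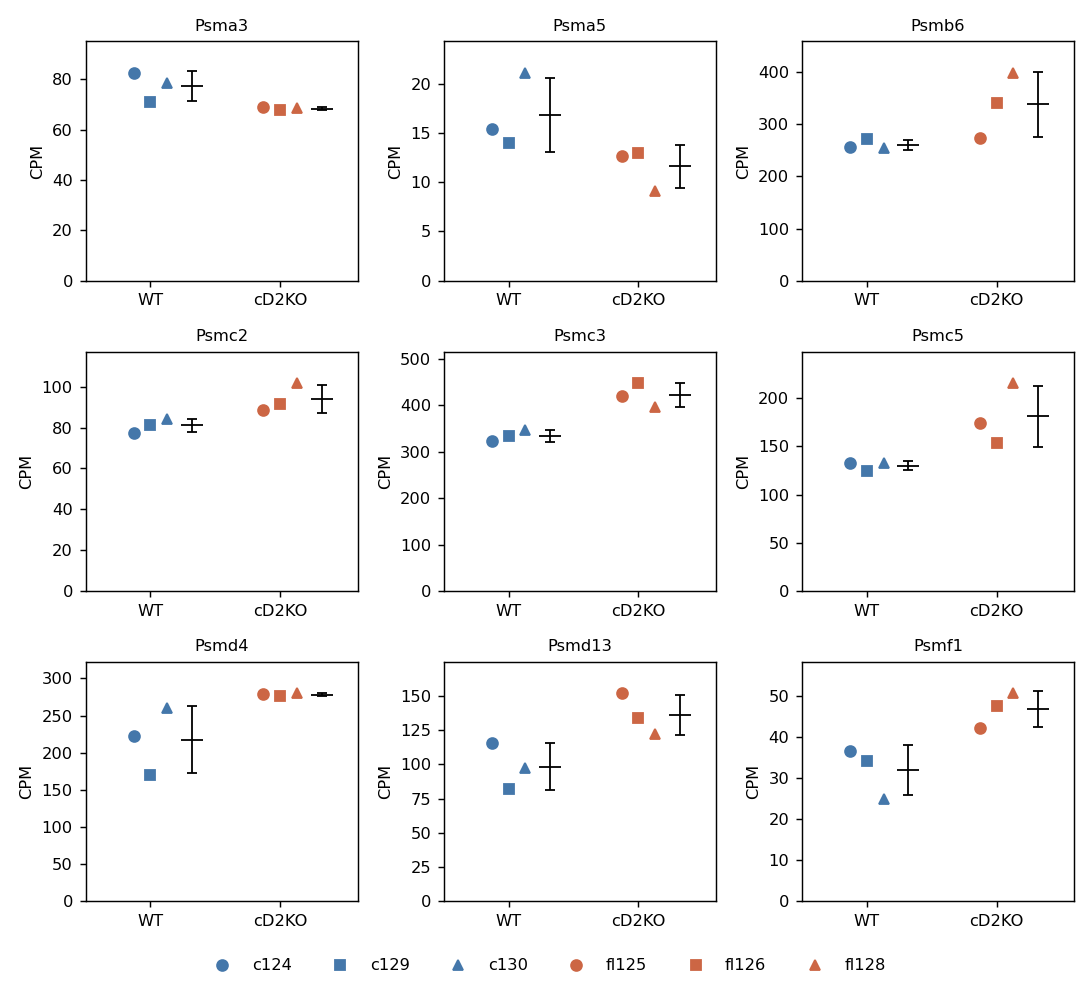
CPM (y axis, from 0) of the 9 tested proteasome genes whose WT (blue) and cD2KO (orange) libraries do not overlap, with a point per mouse and mean ± SD of 3 mice in black. Psma3 and Psma5 are lower in cD2KO and the other 7 genes higher, and the gap between the nearest WT and cD2KO libraries of Psmb6 runs from 271 to 274 CPM.

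None of the 7 assembly chaperones was called by edgeR, DESeq2 or limma voom. The 20S chaperones Psmg1, Psmg2, Psmg3 and Psmg4 had log2 fold changes of 0.19, -0.07, 0.52 and -0.28. Psmg3 was at 18.7, 16.2 and 16.6 CPM in WT and 28.6, 28.4 and 17.3 CPM in cD2KO, and fl128 lay within the WT range. Without fl128 its log2 fold change was 0.72 (edgeR, unadjusted p = 0.0439, adjusted p = 0.524). The 19S chaperones Psmd5, Psmd9 and Psmd10 had log2 fold changes of -0.10, 0.11 and 0.39. Psmd5 was at 12.3, 19.5 and 18.3 CPM in WT and 26.7, 12.3 and 8.17 CPM in cD2KO, where the highest and the lowest of all 6 libraries were both cD2KO. Psmc3ip is found by its name alone. It encodes a partner of Psmc3 that is known for its role in meiotic recombination and is not a subunit. Its counts were 13, 5 and 9 in WT and 8, 9 and 35 in cD2KO, with fl128 above all the others, and its log2 fold change was 1.09 (unadjusted p = 0.134 in edgeR's test). It shares exon sequence with Mlx on the other strand. So do Psma4, Psmb7, Psmd1, Psmd3, Psmd9 and Psme1 with other genes, and Psmb5, Psmd1 and Psmg3 overlap exons of another gene on their own strand.

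Levels of different genes were compared per length, as CPM per kb of annotated exon, which assumes that reads cover the whole transcript. The length joins the exons of all annotated transcripts of a gene and can exceed that of the RNA present. It was 4.595 kb for Psmb1 and 0.899 kb for Psmb5, and its part in the order of genes was not tested. The labels name a digital RNA-seq service, and which part of a transcript its reads cover is not given in the sources used here. On this scale the 31 genes of core and cap spanned 14.8-fold between the highest and the lowest mean over the 6 mice. A particle with a cap on both ends holds these subunits in equal numbers. In WT, Psmb6 was the highest at 139 ± 5.18 CPM per kb (SD, n = 3). Psmc3, Psmd7 and Psma6 followed at 128 ± 4.74, 124.2 ± 5.07 and 123 ± 31.7 CPM per kb, and these 3 lay within 1 SD of their neighbours among them. The lowest were Psma5, Psmd14 and Psmd11, at 12.7 ± 2.86, 12.4 ± 2.81 and 11.7 ± 2.14 CPM per kb, again within 1 SD of each other. In cD2KO the top genes were Psmb6 and Psmc3, at 180.5 ± 33.5 and 162 ± 9.79 CPM per kb. Psma5, Psmd14 and Psmd11 were again the lowest, at 8.78 ± 1.64, 9.76 ± 1.62 and 10.4 ± 1.93 CPM per kb, each within 1 SD of the next.

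**Figure D4:**
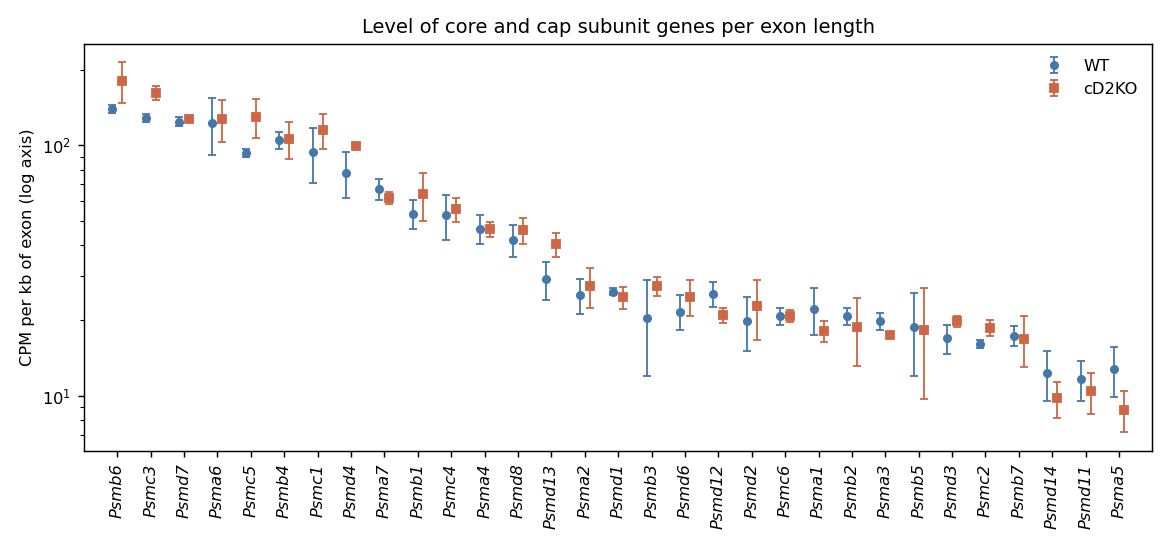
Level of each core and cap gene in CPM per kb of exon (y axis, log scale), as mean ± SD of 3 WT (blue circles) and 3 cD2KO (orange squares) mice, ordered by the mean over all 6 mice. The order of genes spans 14.8-fold, from Psmb6 to Psma5, and Psmb6 and Psmc3 lead in both groups.

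Psmb10 encodes the beta 2i subunit of the immunoproteasome, a form of the core made by immune cells and after interferon. It was at 57.1, 77.3 and 55.4 CPM in WT and 36.3, 72.6 and 41.5 CPM in cD2KO. The library labelled fl126 lay with the WT libraries and the other cD2KO libraries lay below them, with a log2 fold change of -0.33 (unadjusted p = 0.245 in edgeR's test) that was -0.70 without fl126 (unadjusted p = 0.0263 and adjusted p = 0.441 in edgeR's test). Psmb8 and Psmb9, the beta 5i and beta 1i subunits that the rule leaves out, had log2 fold changes of -0.79 and -1.01 (unadjusted p = 0.0737 and 0.111 in edgeR's test) and overlapped between the groups. Whether Psmb8 passed depended on the setting. It was lower in DESeq2 (unadjusted p = 0.0391), limma voom (unadjusted p = 0.0381) and edgeR without an expression minimum (unadjusted p = 0.00251, adjusted p = 0.0755), and in edgeR without c124 or without fl126. Over the 6 edgeR fits that left out 1 mouse its log2 fold change ran from -1.29 (without fl126) to -0.43 (without fl125). Psmb9 passed only without fl125 among all settings, at -1.44 (edgeR, unadjusted p = 0.0429). Psmb8 was at 56.3, 108 and 69.9 CPM in WT and 21.8, 71.2 and 41.2 CPM in cD2KO, and c129 had the highest value of Psmb8, Psmb9 and Psmb10. It was also the library with the highest sum of the immune markers, 9915 CPM, and fl125, with the lowest sum, had the lowest Psmb8 and Psmb10. The part of immune RNA in these values was not tested. Psmb9 shares exon sequence with Tap1, and Psmb8 with Gm20496, on the other strand.

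**Figure D5:**
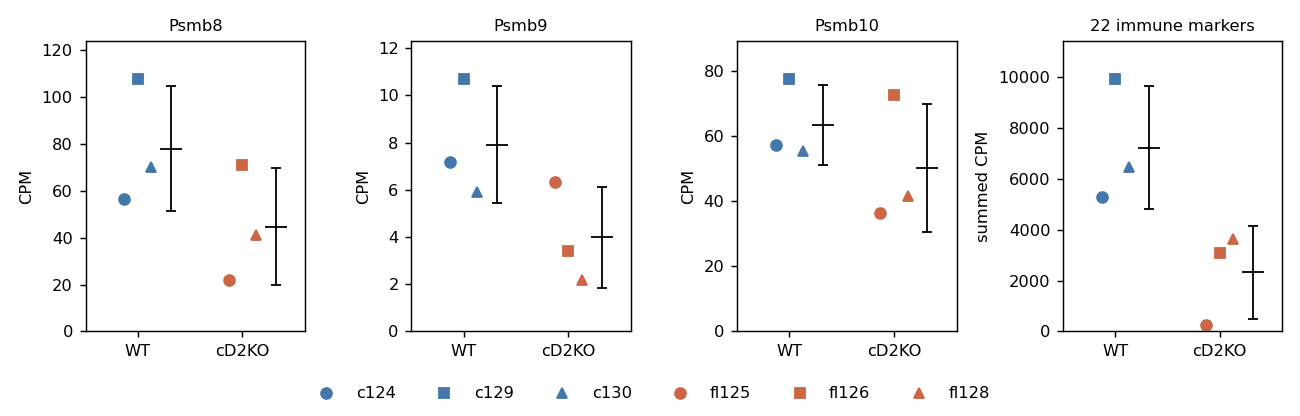
CPM (y axes, from 0) of the immunoproteasome genes Psmb8, Psmb9 and Psmb10 and summed CPM of 22 immune markers for each WT (blue) and cD2KO (orange) mouse, with mean ± SD of 3 mice in black. WT c129 is the highest library in all 4 panels, and the library labelled fl125 is the lowest in all but Psmb9.

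Of the ubiquitin-proteasome pathway outside the Psm names 25 genes were tested. Their median log2 fold change was -0.17, and edgeR called 1 higher and 1 lower, beside 5.34% and 6.62% of all genes. The higher gene was Uba1, the main ubiquitin-activating enzyme. Uba1 was at 259.6, 176 and 263 CPM in WT and 342, 315 and 322 CPM in cD2KO, a log2 fold change of 0.48 with an SE of 0.21 (edgeR, unadjusted p = 0.0337, adjusted p = 0.377). All its cD2KO libraries were above all its WT libraries. The lower gene was Sem1, the smallest lid subunit, whose symbol lies outside the rule. It was at 106, 123 and 78.6 CPM in WT and 82.9, 74.3 and 61.9 CPM in cD2KO, and fl125 lay inside the WT range, with a log2 fold change of -0.50 with an SE of 0.22 (edgeR, unadjusted p = 0.0417, adjusted p = 0.396). Uba1 lost its call in 2 of the 6 fits that left out 1 mouse (c129 or fl126) and Sem1 in 4 (c124, c129, fl126 or fl128). Uba1 also lost it with counts scaled to the library total (unadjusted p = 0.0551 in edgeR's test), and Sem1 in the Wald test of DESeq2 (unadjusted p = 0.0676).

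Nfe2l1, the transcription factor that induces proteasome genes when proteasome activity is short, was at 88.3, 103 and 69.9 CPM in WT and 89.3, 94.8 and 111 CPM in cD2KO, and the groups overlapped, with a log2 fold change of 0.17 and a fold change interval of 0.826 to 1.54. Pomp, which assembles the core, was at 237, 255 and 250.3 CPM in WT and 282, 269 and 280.1 CPM in cD2KO. Its cD2KO libraries were all above its WT libraries by a small margin, with a log2 fold change of 0.16 (unadjusted p = 0.391 in edgeR's test). Adrm1 (Rpn13), a ubiquitin receptor of the cap, was low and variable, at 18.7, 5.52 and 20.1 CPM in WT and 20.8, 21.2 and 14.1 CPM in cD2KO. The ubiquitin gene Ubb had a log2 fold change of -0.03.

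Nfe2l1 and its relative Nfe2l2 bind the antioxidant response element, whose core is TGACNNNGC. The element was searched on both strands of RefSeq promoter windows of GRCm38.p6, the assembly of mm10, each running from 250 bases before to 50 bases after a gene start. Windows were matched for 40 of the 48 genes. The core element was in 6 of these 40 genes, or 15.0%, beside 13.99% of all 27025 genes with a window. The motif CCAAT, to which NF-Y binds, was in 14 of the 40 genes, or 35.0%, beside 41.1% of all genes. It was in 6 of 11 core genes, 5 of them among the 7 of the alpha ring, and in 4 of 14 cap genes. Of the ATPase ring 2 of 5 genes held it, of the activators 1 of 5 and of the assembly chaperones 1 of 6. The 6 matches are shown because these are the members whose windows hold the letters TGACNNNGC. Their share is close to that of all genes, and binding was not measured. Each is read 5′ to 3′ in the direction of the motif, with the motif in capitals.
Psmb5, chr14:54618024-54618052, minus strand: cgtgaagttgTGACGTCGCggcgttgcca
Psmb6, chr11:70525338-70525366, plus strand: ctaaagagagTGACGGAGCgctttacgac
Psmc6, chr14:45329587-45329615, minus strand: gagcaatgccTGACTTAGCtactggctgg
Psmd12, chr11:107479278-107479299, minus strand: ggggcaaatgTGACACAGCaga
Psmd9, chr5:123228149-123228177, plus strand: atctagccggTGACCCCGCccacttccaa
Psme4, chr11:30771758-30771786, minus strand: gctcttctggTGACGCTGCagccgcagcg

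The log2 fold changes of these 6 genes were -0.04 (Psmb5), 0.37 (Psmb6), 0.00 (Psmc6), -0.28 (Psmd12), 0.11 (Psmd9) and 0.02 (Psme4), with none called by edgeR, DESeq2 or limma voom. The printed run of Psmd12 ends at the edge of its window. The 3 called genes Psmc5, Psmd13 and Psmf1 had no match to TGACNNNGC in a window here, which says only that these letters were not found there.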

How the data were processed

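qMuSC RNA of 3 WT and 3 cD2KO mice was analysed, with mice grouped by the genotype in the sample labels. After extraction with a Qiagen column kit, the authors mapped reads to mm10 with STAR, and the table they deposited holds unnormalized read counts for each gene. The submitters' processing notes name STAR 2.6.0a, HTSeq 0.9.1 and bcl2fastq, while annotation, strand setting and PCR duplicates are not given in the sources used here. Symbols, coordinates and exon lengths came from GENCODE M21. Of 31053 genes, the 11633 whose DESeq2-normalized counts averaged above 10 were tested. The test was edgeR's quasi-likelihood test (edgeR 4.0.16, R 4.3.3) with TMM factors, robust estimation and genotype as its only term, and Benjamini-Hochberg adjustment ran across these 11633 genes. A call is an unadjusted p under 0.05, the line the study draws. The labels name mice and no batch, so p-values measure the spread between these mice, and the 3-count floors cover counting error only. No pair of libraries agreed within sampling noise.

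Genes named were all called members, the highest and lowest tested member of each role, the catalytic subunits, Psmd4, Psmd14, the activators, Psmf1, members not tested, and, of the partner genes, those called and Nfe2l1, Pomp, Adrm1 and Sem1. The other members and Ubb were named after their values were seen. The members, roles and lists were chosen with earlier results of these data known. Alternatives were DESeq2 1.42.0, limma 3.58.1 voom, 3 other scalings, 3 other minimums, non-robust estimation, stricter thresholds and leaving out each mouse. The fits were checked beforehand on simulated counts. With a simulated log2 fold change of 0.5 in size, edgeR's test gave an unadjusted p under 0.05 in 28% of genes. With a size of 1 it did so in 76%, and with 0 in 4.69%. An adjusted p under 0.05 was reached in 0% of genes at 0.5 and 6% at 1. Paaf1 of the partner list was not used here, and 2 other genes were left out of that list, whose counts are over the remaining 25.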

Additional observations from a re-analysis of the deposited data

How the results depend on the processing

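Of 457 recomputed log2 fold changes or calls for 31 named genes, 394 kept direction and side of the threshold, 25 lost the call, 11 gained one (5 of them Psmb8, the others Psmb3, Psmb6, Psmb9, Psmb10, Psme1 and Psmg3) and 27 changed sign. Without a minimum, 939 genes were higher. With a minimum mean of 50, 505 genes were lower and 1 proteasome gene (Psmc5) higher. At an adjusted p under 0.05 edgeR called 1 gene higher and 0 lower, and under 0.1, 33 and 57, with 0 proteasome genes at either level, where DESeq2 called 2 and limma voom 3 at an unadjusted p under 0.05. With counts scaled to the library total, 439 genes were higher and 953 lower, 0 proteasome genes were higher and their median log2 fold change was 0.012. Leaving out 1 mouse gave 402 to 933 genes higher (lowest without fl128, highest without fl125) and 399 to 874 lower (lowest without c129). It gave 0 to 5 proteasome genes higher, 0 without c130, 1 without c129 (Psmf1), 1 without fl126 (Psmc5), 2 without fl128 (Psmd13 and Psmg3), 3 without c124 (Psmb3, Psmd13 and Psmf1) and 5 without fl125 (Psmb1, Psmb6, Psmc5, Psme1 and Psmf1), and 0 to 1 lower (Psmb10 without fl126). Median log2 fold changes then ranged over 0.038 to 0.16 for all proteasome genes, -0.092 to 0.10 for the core, 0.11 to 0.23 for the cap and -0.11 to 0.19 for the activators, below 0 without fl128. Those of genes that changed sign ranged over -0.033 to 0.59 (Adrm1), -0.42 to 0.047 (Psmb2), -0.46 to 0.26 (Psmb5), -0.21 to 0.16 (Psmb7), -0.062 to 0.053 (Psmc6), -0.12 to 0.046 (Psmd1), -0.66 to 0.21 (Psmd5), -0.071 to 0.43 (Psme1), -0.15 to 0.43 (Psme3) and -0.069 to 0.15 (Psme4). Other log2 fold changes with a changed sign were near 0. Psmb5 was at 0.0015 and Psmb7 at 0.0020 without a minimum. Psmc6 was at -0.0032 in limma voom, -0.034 with a minimum of 50, -0.064 scaled to the total and -0.0022 with upper quartiles. Psme4 was at -0.012 with a minimum of 50 and -0.043 scaled to the total. Over all settings, adjusted p in edgeR, DESeq2 or limma ranged over 0.184 to 0.669 for Psmc5, 0.317 to 0.718 for Psmd13 and 0.226 to 0.707 for Psmf1. The cause of these shifts was not tested. At this depth, genes under 10 mean counts were not tested. No paired analysis was possible because the labels number each mouse differently and no number is shared by both groups. Leaving genes out of the ratio and scaling sums to the library total were chosen after seeing the data.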
